A study of Homo sapiens with 8 samples.

Results

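Splicing was examined in 54 genes of vesicle trafficking and endocytosis in JSL1, a monoclonal human T cell line derived from Jurkat. The genes were listed by name, and every local splicing variation (LSV) carrying one of these names was taken from the authors' 2 tables of splicing changes. An LSV is a set of competing choices at one exon: a source LSV holds the junctions that leave it, a target LSV those that arrive at it, and a retained intron may be a further choice. All 54 genes were listed in both tables, among 10947 genes in the table without PMA and 11021 in the table with PMA. They carried 776 and 778 LSVs, of 91480 and 91729 in all.

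The study asked which transcripts depend on CELF2, a protein that binds RNA and controls splicing, and it sequenced polyadenylated RNA with strand kept. The 8 libraries formed 4 groups of 2: JSL1 control cells without stimulation, JSL1 cells with hairpins against CELF2 without stimulation, JSL1 control cells given PMA, and JSL1 cells with hairpins against CELF2 given PMA. PMA is a phorbol ester and switches on protein kinase C, and cells were kept in it at 20 ng/mL for 48 hours. The hairpins were carried by stably integrated lentivirus and induced by doxycycline, and the sources used here do not say whether control cells had doxycycline or a hairpin of another kind. All groups come from 1 clonal tumour line, so nothing here speaks of primary T cells. The tables give 1 pooled value per group, so there is no spread between libraries, no read depth and no test across samples in what follows. The tables hold no expression values, so the extent of CELF2 loss was not measured here. LSVs were listed for 11 of 13 T cell marker genes in each table, for 1 of 4 B cell markers (CD79A), for 0 of 4 myeloid and for 0 of 5 fibroblast or epithelial markers. The reads that a listing required are not stated in the sources used here, so a listing is no measure of expression.

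Vesicles carry proteins and lipids between the compartments of a cell. Coat proteins such as COPII and clathrin shape the bud and pick its cargo, dynamins and membrane-bending proteins release it, tethers such as golgins and the exocyst capture it, and SNARE proteins fuse it with its target. In T cells the same machinery delivers cytokines and lytic granules, and returns antigen receptors to and from the surface. Many of its genes carry short alternative exons that keep the reading frame.

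The unit of measurement was the expected share of a junction within its LSV, E(PSI), given here in percent. The deposited shares run from 2.5% to 97.5%, and a value at either end is the limit of the scale and not a measured 0 or 100. A gene was called changed where the authors gave any of its junctions a posterior probability of at least 0.95 that the share differed by 20 percentage points or more between depleted and control cells of one state. This probability is the only measure of error in the files, and it is neither a p-value nor adjusted for the number of LSVs.

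Several exons at these LSVs were short and of a length that keeps the reading frame. At the LSVs described below, with or without a called depletion effect, 15 exons of 12 genes that held at least 15% in some group matched 1 exon of GENCODE 29 by the lengths of the exon and of the introns beside it. Of these 15 lengths, from 12 to 342 nucleotides, 14 were multiples of 3. The 15 count 1 SEC31A exon in 2 forms, and both forms are multiples of 3. Among all simple cassette exons with both flanking LSVs, 19 of 33 in the same 54 genes (57.6%) and 44.6% of 4019 in the table without PMA had such a length. These sets were picked differently and were not tested against each other, and the count leaves out exons that could not be matched, such as those of GGA1, EXOC4, STX2, ARFGAP1 and the upstream one of BIN1. Of the 13 exons that are wholly coding in at least 1 transcript, 11 are printed, because their inclusion is what the results turn on, and the 2 long forms of a SEC31A exon are left out. Capitals mark the exon, and lower case the 15 coding bases before and after it in the spliced transcript, from GENCODE 29 on GRCh38. Positions given below are those of the authors' files, on hg19.
SEC16A 60-nt exon: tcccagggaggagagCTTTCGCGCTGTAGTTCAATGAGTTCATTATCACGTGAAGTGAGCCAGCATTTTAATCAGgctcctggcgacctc
GOLGA2 81-nt exon: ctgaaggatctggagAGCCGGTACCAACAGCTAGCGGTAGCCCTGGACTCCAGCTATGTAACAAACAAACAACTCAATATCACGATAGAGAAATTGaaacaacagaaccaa
PICALM 24-nt exon: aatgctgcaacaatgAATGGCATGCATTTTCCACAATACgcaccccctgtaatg
BIN1 129-nt exon: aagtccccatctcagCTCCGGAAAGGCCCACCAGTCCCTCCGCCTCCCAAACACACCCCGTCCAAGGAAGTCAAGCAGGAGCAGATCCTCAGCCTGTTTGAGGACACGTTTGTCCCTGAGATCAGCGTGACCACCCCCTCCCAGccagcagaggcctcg
DNM1L 78-nt exon: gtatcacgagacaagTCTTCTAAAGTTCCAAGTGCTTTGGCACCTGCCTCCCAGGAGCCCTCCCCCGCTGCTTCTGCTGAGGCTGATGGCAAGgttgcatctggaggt
DNM1L 33-nt exon: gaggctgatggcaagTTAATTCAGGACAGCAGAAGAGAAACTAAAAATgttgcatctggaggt
DNM2 12-nt exon: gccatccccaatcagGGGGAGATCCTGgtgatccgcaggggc
EXOC7 93-nt exon: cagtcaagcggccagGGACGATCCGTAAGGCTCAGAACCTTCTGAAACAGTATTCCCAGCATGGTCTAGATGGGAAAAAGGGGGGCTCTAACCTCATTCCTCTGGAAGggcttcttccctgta
CLSTN1 57-nt exon: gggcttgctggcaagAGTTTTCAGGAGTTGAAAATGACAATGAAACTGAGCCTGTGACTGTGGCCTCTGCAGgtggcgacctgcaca
CLSTN1 30-nt exon: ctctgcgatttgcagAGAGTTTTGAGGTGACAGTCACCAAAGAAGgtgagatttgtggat
MFSD8 145-nt exon: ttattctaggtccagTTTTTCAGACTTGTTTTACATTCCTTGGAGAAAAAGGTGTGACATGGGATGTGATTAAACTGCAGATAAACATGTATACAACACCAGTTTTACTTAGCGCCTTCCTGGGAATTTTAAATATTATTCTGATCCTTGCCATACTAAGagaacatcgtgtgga

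Of the 54 genes, 8 had a called LSV without PMA (14.8%), against 6.21% of all 10947 genes, and 12 had one with PMA (22.2%), against 10.6% of all 11021. These genes carried many LSVs, 5 to 28 each with a median of 14 against 7 over all genes. Among other genes of like LSV number, 8.8% were called without and 15.8% with PMA. The 54 genes were chosen with earlier results of these tables known, so these counts describe the list and were not tested. CLSTN1, SLMAP and MFSD8, grouped below as other membrane proteins, gave 2 of the 8 calls without PMA and 3 of the 12 with PMA. Without PMA the count fell to 4 of 52 genes when LSVs marked as holding a de novo junction were left out, against 2.87% of all genes and 4.6% of genes of like LSV number. Called instead by the authors' expected change of 20 points or more, 16 of 54 genes passed with PMA. This was level with the 29.6% of genes of like LSV number.

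**Figure D1:**
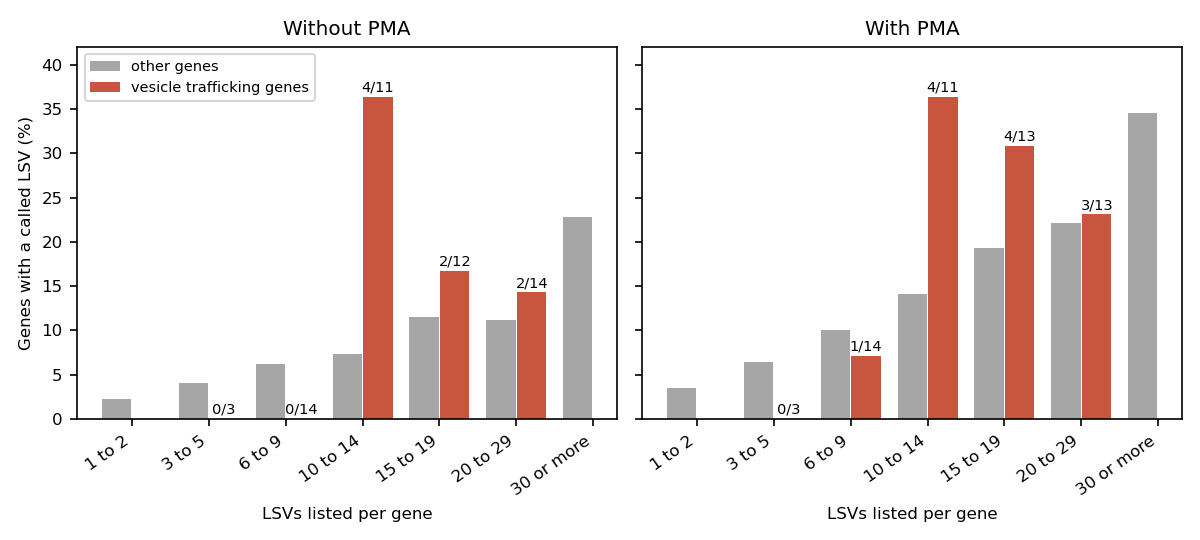
Percent of genes with a called LSV (vertical axis) by the number of LSVs listed for the gene (horizontal axis), without and with PMA, for the 54 vesicle trafficking genes (red, with called over listed genes) and all other genes (grey). The share mostly rises with LSV number in the other genes, though without PMA it is 11.5% at 15 to 19 LSVs and 11.2% at 20 to 29. In the class of 10 to 14 LSVs 4 of 11 vesicle trafficking genes were called in each state, against 7.39% and 14.1% of other genes.

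In 6 genes a call was made in both states: GOLGA2, DNM1L, DNM2, EXOC4, CLSTN1 and MFSD8, though in DNM2 at different LSVs. GGA1 and ARFGAP1 were called without PMA alone, and SEC16A, SEC31A, PICALM, BIN1, STX2 and SLMAP with PMA alone. The remaining 40 genes were called in neither. Over the whole series this overlap was counted by LSV and not by gene. Of LSVs called without PMA and listed in both tables, 10 of 13 in the 54 genes were also called with PMA, against 271 of 788. Of those called with PMA, 10 of 22 were also called without, against 271 of 1508. Source and target LSVs of 1 exon count separately here, and the overlap was not tested. The median over the 54 genes of the largest difference at any junction was 10.6 points without PMA and 15 points with PMA, against 8.1 and 9.8 points over all genes and 11 and 13.5 points over genes of like LSV number. When LSVs of more than 2 choices were left out, the median of the 54 genes was 3.5 points without and 5.2 points with PMA, against 3.6 and 4.5 points over all genes. It was then below the 5.6 and 7.1 points of genes of like LSV number. With PMA, which of these sets lies higher thus depends on this choice, while without PMA the 54 genes lay lower either way.

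**Figure D2:**
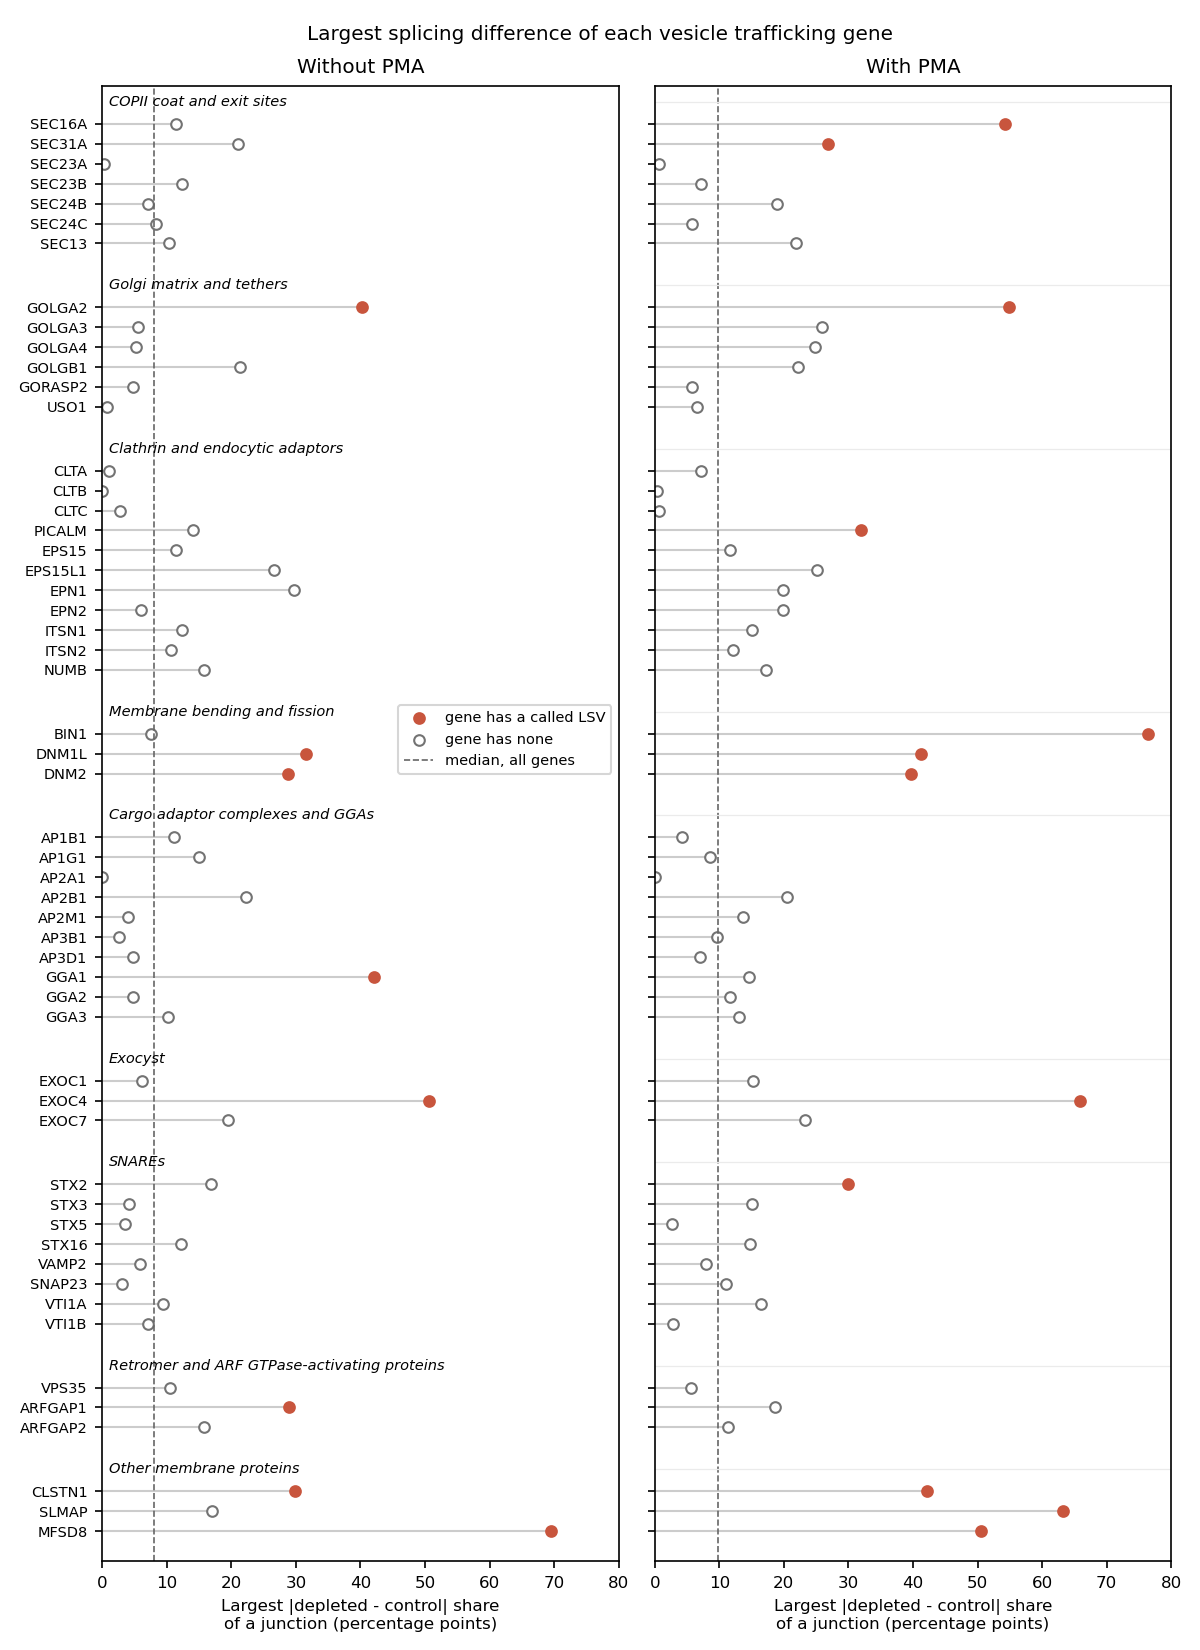
Largest absolute difference in junction share between CELF2-depleted and control cells (percentage points) for each of the 54 genes, grouped by role, without PMA (left) and with PMA (right). Filled points are genes with a called LSV, and the dashed line is the median over all genes, 8.1 points without and 9.8 points with PMA. CLTB, CLTC and AP2A1 lie near 0 in both panels, and CLTA lies at 7.2 points with PMA. BIN1 with PMA lies farthest right, at 76.4 points.

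COPII forms vesicles at exit sites of the endoplasmic reticulum, and 2 of its 7 genes here were called, both with PMA. SEC16A, the scaffold of those exit sites, has a coding exon of 60 nucleotides at chr9:139339504-139339563 (minus strand). In the source LSV upstream of it, the exon held 43.2% in control and 54.6% in depleted cells without PMA, and 11.1% and 65.4% with PMA. The depletion difference was thus 11.4 points in one state and 54.3 in the other. The target LSV downstream, which has 3 choices, gave 39.2% and 50.4% without PMA and 15.6% and 56.3% with PMA. Both sides of the exon show low inclusion in PMA-treated control cells alone. SEC31A, which with SEC13 builds the outer cage of the coat, was called at a long junction from 83765539 to 83750211 of chromosome 4 that passes over several exons. It held 6.5% in control and 17.3% in depleted cells without PMA, and 7.9% and 34.7% with PMA. Its source LSV gave 4.5% and 13.9%, then 7.4% and 31.4%, so skipping was higher in depleted cells of both states by either measure. One of the exons passed over is coding and ends at either of 2 sites, with a length of 297 or 342 nucleotides. The longer form had 65.0% and 43.9% without PMA and 56.6% and 33.1% with PMA, while the shorter had 24.0% and 29.2%, then 23.6% and 18.9%.

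The other 5 COPII genes were not called. SEC23A, a subunit of the inner coat, differed by at most 0.7 points at any junction in either state. SEC13 reached 21.9 points with PMA (68.8% and 46.9% at 1 of 9 choices), and its highest posterior in the authors' deposited table was 0.481. SEC24B reached 19 points with PMA and SEC23B 12.4 points without, while the cargo-binding subunit SEC24C stayed within 8.3 points in both.

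Golgins and their partners hold the Golgi stacks together and catch arriving vesicles. GOLGA2, a matrix golgin of the cis face, was the 1 gene of 6 that was called, and it was called in both states. Its coding exon of 81 nucleotides lies at chr9:131029473-131029553 (minus strand). Averaged over its source and target LSVs, inclusion was 59.9% in control and 20.8% in depleted cells without PMA, and 65.5% and 11.8% with PMA. Both LSVs gave falls of 38.0 points or more in each state. The exon therefore went from the larger to the smaller part of GOLGA2 transcripts in depleted cells, with or without PMA.

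GOLGA4, a golgin of the trans face, had an exon that differed between states and hardly between control and depleted cells. Inclusion of this 63-nucleotide exon at chr3:37402734-37402796 was 55.7% in control and 57.7% in depleted cells without PMA, and 25.7% and 28.5% with PMA, by the source LSV. The target LSV gave 52.8%, 52.6%, 29.9% and 29.9% in the same order. In its 1 annotated transcript in GENCODE 29 the exon is only partly coding, so its bases are not printed. At another GOLGA4 junction the depletion difference with PMA was -24.8 points (89.8% and 65.0%), which was not called. Of the others, GOLGB1 (giantin) had a junction whose depletion difference was 21.4 points without PMA (19.2% and 40.6%) and -22.2 points with PMA (50.5% and 28.3%), and neither was called. GOLGA3 reached 25.9 points with PMA at an LSV not listed without it. GORASP2 and USO1, which link and tether Golgi membranes, stayed within 6.5 points in both states.

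Clathrin-coated pits take up receptors from the plasma membrane, and the splicing of the clathrin genes themselves varied little. The heavy chain gene CLTC differed by at most 2.8 points at any of its 20 LSVs without PMA and by 0.7 points with PMA. The light chain gene CLTB differed by at most 0.3 points, and CLTA by 1.1 points without and 7.2 points with PMA. Of the 11 clathrin and endocytic adaptor genes, PICALM alone was called, with PMA. PICALM recruits clathrin to membranes and senses their curvature. Its coding exon of 24 nucleotides, whose near end lies at position 85689113 of chromosome 11 (minus strand), held 4.6% in control and 18.7% in depleted cells without PMA, and 2.5% and 34.5% with PMA. The exon was near the lower limit of the scale in both control groups and above it in both depleted groups.

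Of the adaptor genes that were not called, EPN1 and EPS15L1 came closest to a call. EPN1, or epsin 1, which binds ubiquitinated cargo, had a junction from 56188584 to 56188916 of chromosome 19 at 38.9% in control and 9.2% in depleted cells without PMA. With PMA the same junction stood at 14.5% and 34.3%, so its differences were -29.7 and 19.8 points. The highest posterior probabilities for EPN1 in the authors' deposited table were 0.942 and 0.316. EPS15L1, a scaffold of early coated pits, leaves 1 exon from either of 2 sites, at 16472590 or 16472697 of chromosome 19. The share of the first was 72.4% in control and 47.0% in depleted cells without PMA, and 93.9% and 68.7% with PMA. Depletion differences were -25.4 and -25.2 points, and both PMA groups were higher than their unstimulated counterparts. The highest posterior probabilities of the gene in the authors' deposited table were 0.909 and 0.858, so it was not called. Differences of 15.7 and 17.2 points were found in NUMB, an adaptor that also restrains Notch, and of 12.3 and 15 points in the scaffold gene ITSN1. EPS15, EPN2 and ITSN2 reached 11.6, 19.9 and 12.2 points at most.

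Of the 3 genes of membrane bending and fission, DNM1L and DNM2 were called in both states and BIN1 with PMA. DNM1L encodes the dynamin-related GTPase that divides mitochondria and peroxisomes. It has a pair of neighbouring coding exons of 78 and 33 nucleotides, at chr12:32890799-32890876 and chr12:32891198-32891230. Transcripts that skip both held 14.7% in control and 41.4% in depleted cells without PMA, and 8.8% and 36.0% with PMA, in the source LSV. The target LSV gave 21.9% and 47.3%, then 13.3% and 49.6%. The 33-nucleotide exon fell, and its junction to the next exon had 68.0% and 36.5% without PMA and 79.3% and 38.0% with PMA. For the 78-nucleotide exon the sides differed. By its downstream junction it held 10% and 16.3%, then 7.5% and 12.5%, and by entry into it 21.9% and 22.8%, then 28% and 17.8%. Depleted cells of both states thus had more DNM1L transcripts without either exon.

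DNM2, or dynamin 2, pinches off endocytic vesicles, and its calls lay at different exons in the 2 states. Without PMA, a junction from 10906875 to 10908056 of chromosome 19, unlike any intron length of the gene in GENCODE 29, had 9.4% in control and 38.2% in depleted cells. With PMA it had 4.8% and 3.3%, so the groups stood apart without PMA and not with it. With PMA, the called LSV lay around a coding exon of 12 nucleotides at chr19:10919245-10919256. In the source LSV the exon had 26.4% in control and 15.5% in depleted cells without PMA, and 49.9% and 10.4% with PMA. The target LSV, which also counts a retained intron, did not repeat this. There the exon had 9.2%, 3.9%, 3.8% and 3.6% in the same order, while the intron had 56.7%, 47.9%, 71.8% and 38.4%. Skipping of the exon rose with depletion by both LSVs, from 49.7% to 89.4% and from 23.9% to 57.4% with PMA.

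BIN1, an amphiphysin that tubulates membranes, was called at 2 LSVs that are listed with PMA alone, so its values without PMA at these exons are unknown. A coding exon of 129 nucleotides, whose near end lies at 127815049 of chromosome 2 (minus strand), joined the next exon at 13.8% in control and 45.7% in depleted cells. The junction that passes over it fell from 85.9% to 53.5%. Farther upstream, a junction from 127864436 to 127834282 rose from 6.6% to 83.0%, and its competitor from 127839408, whose length matches no BIN1 intron in GENCODE 29, fell from 93.4% to 17.0%. At the 5 LSVs of BIN1 listed without PMA the largest difference was 7.5 points.

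**Figure D3:**
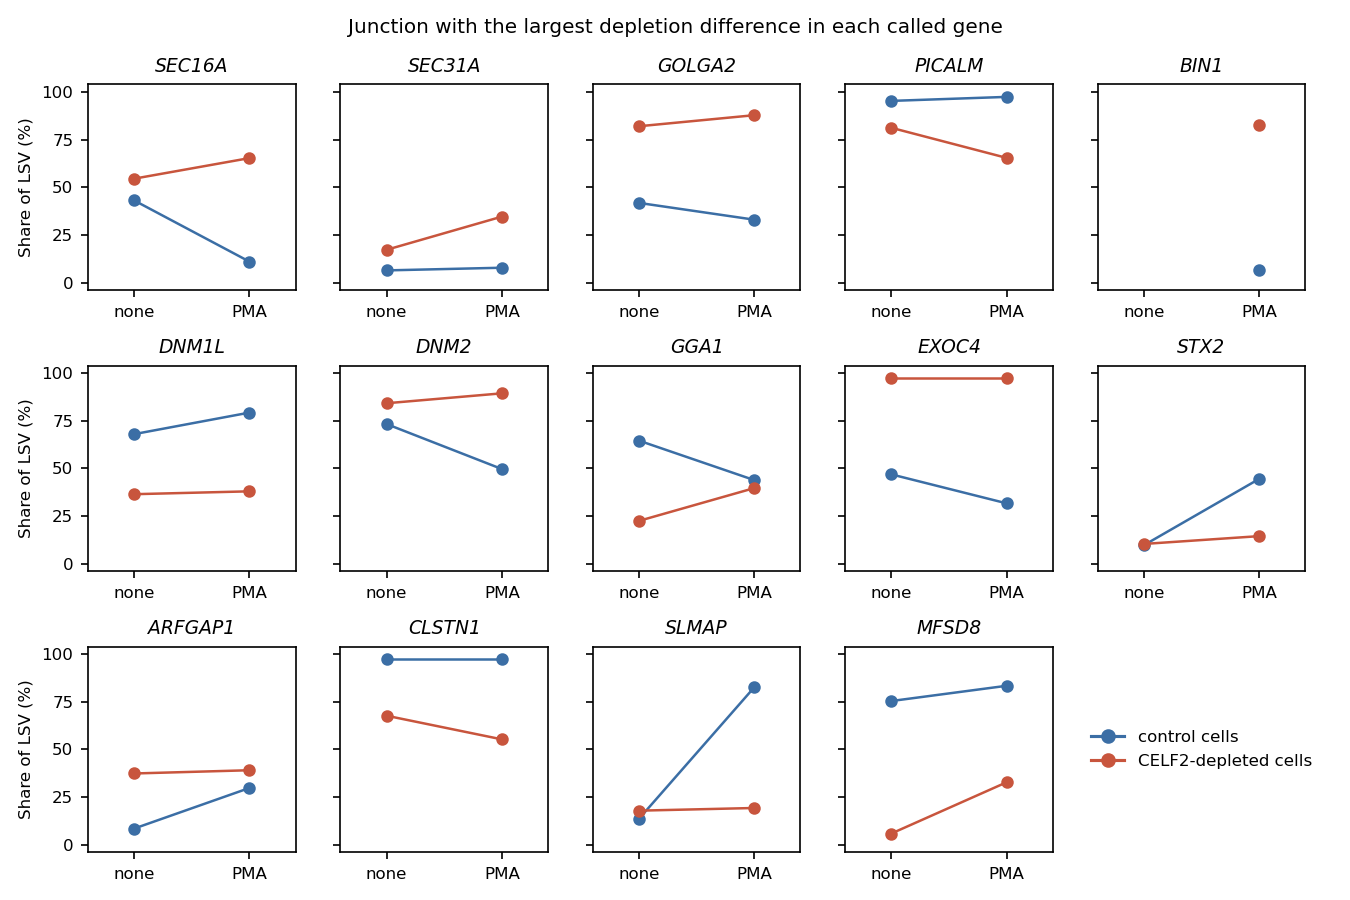
Share of its LSV (percent, vertical axis) of the junction with the largest depletion difference in each of the 14 called genes, without and with PMA, in control (blue) and CELF2-depleted cells (red); each point is the authors' pooled value of 2 libraries, and BIN1 was listed with PMA alone. GOLGA2, DNM1L, EXOC4, CLSTN1 and MFSD8 keep a gap in both states, whereas STX2 and SLMAP open 1 with PMA.

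Adaptor complexes choose cargo at the Golgi and endosomes, and 1 of 10 genes was called. GGA1, an adaptor for mannose 6-phosphate receptors at the trans-Golgi, had a target LSV of 9 choices near its 5′ end. The junction from 38004910 to 38010197 of chromosome 22 had 64.6% in control and 22.5% in depleted cells without PMA, and 43.9% and 39.7% with PMA. Its main competitor, from 38009198, had 23.2% and 41.1%, then 31.3% and 37.9%. Here the groups without PMA differed by 42.1 points and those with PMA by 4.2, the converse of SEC16A. AP2A1, a large subunit of the plasma membrane adaptor AP-2, listed 24 LSVs in each state and differed by 0.0 points at all of them, each at a limit of the scale. AP2B1, its partner subunit, reached 22.3 points without PMA (59.4% and 81.7%) and 20.5 points with PMA at another LSV (53.8% and 74.3%), and its highest posterior probabilities in the authors' deposited table were 0.868 and 0.769. AP2M1 reached 13.7 points with PMA. Of the AP-1 and AP-3 genes, AP1B1, AP1G1, AP3B1 and AP3D1 stayed within 15 points, and GGA2 and GGA3 within 13.1 points.

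The exocyst tethers secretory vesicles to the plasma membrane. EXOC4 was called in both states at a pair of LSVs of 1 exon, which begins at 133164804 of chromosome 7. Entry into this exon by the junction from 133160227 had 46.2% in control and 92.9% in depleted cells without PMA, and 30.5% and 94.0% with PMA. The competing choice was the intron before it, at 53.2% and 7.0%, then 66.3% and 5.9%. On the other side, the junction from 133164892 to 133314798 had 46.9% and 97.5% without PMA and 31.7% and 97.5% with PMA, and a junction from 133165263 to 133168562 had 52.8% and 2.5%, then 68.3% and 2.5%. Both of these junctions have lengths that match no EXOC4 intron in GENCODE 29. Downstream of the exon, depleted cells of both states sat at the limits of the scale, and control cells held both forms.

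EXOC7, whose protein binds the lipids of the plasma membrane, varied with the state and was not called between control and depleted cells. Its coding exon of 93 nucleotides lies at chr17:74087224-74087316 (minus strand). The junction that skips it had 44.6% in control and 27.8% in depleted cells without PMA, and 78.3% and 64.0% with PMA, in the source LSV. Entry into the exon had 55.1% and 71.6%, then 21.4% and 35.9%. The target LSV gave 41.5%, 25.5%, 77.4% and 61.2% for skipping. PMA-treated cells of both kinds thus skipped the exon more, and depleted cells of each state less than their controls. The largest depletion difference of EXOC7 with PMA was -23.2 points, at the intron from 74086563 to 74087223. This intron had 54.3% in control and 31.1% in depleted cells with PMA, and 22.1% and 21.9% without. The highest posterior probability of the gene was 0.679 without and 0.874 with PMA. EXOC1 reached 6.1 points without and 15.2 points with PMA.

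SNARE proteins drive fusion, and 1 of 8 genes was called. STX2, a syntaxin of the plasma membrane, had a source LSV in which the junction from 131291527 to 131289085 of chromosome 12 led to an exon that matches no annotated intron length. It took 9.7% in control and 10.4% in depleted cells without PMA, and 44.5% and 14.5% with PMA. The PMA-treated control group stood alone. STX16 reached 14.8 points, STX3 15 and VTI1A 16.4, each with PMA. SNAP23 reached 11 points, and VAMP2, VTI1B and STX5 stayed within 7.9 points in both states.

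Retromer returns receptors from endosomes, and ARF GTPase-activating proteins end the signal that recruits coats. ARFGAP1 was called without PMA at a target LSV of an exon that begins at 61913457 of chromosome 20. Among arrivals at this exon, the intron before it, from 61912700 to 61913456, held 91.5% in control and 62.6% in depleted cells, and 70.2% and 60.9% with PMA. The spliced arrival rose from 8.5% to 37.4% without PMA, and with PMA it had 29.8% and 39.1%, which was not called. The exon belongs to a minor form: the junction from 61912699 to 61914171, which passes over both, took 81.5%, 80.9%, 68.9% and 70.0% of the source LSV, in the order of control and depleted cells without and then with PMA. The largest ARFGAP1 difference with PMA was -18.7 points, at the junction from 61915864 to 61916218 of another LSV, and was not called. This junction had 44.6% in control and 25.9% in depleted cells with PMA, and 46.7% and 27.2% without. ARFGAP2 reached 15.8 and 11.4 points, and the retromer subunit gene VPS35 10.5 and 5.6 points.

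The remaining 3 genes code for other membrane proteins, and all of them were called with PMA. CLSTN1, calsyntenin 1, links cargo vesicles to kinesin. It gained 2 short coding exons on depletion. The 57-nucleotide exon at chr1:9797556-9797612 (minus strand) was at 2.5% in both control groups and at 32.3% and 44.7% in depleted cells without and with PMA, by the target LSV. Its source LSV gave 26% and 36.5%. The 30-nucleotide exon at chr1:9816539-9816568 was also at 2.5% in controls by the target LSV, and at 12.5% and 29.1% in depleted cells, and was called with PMA alone. Both exons were at 2.5% or 2.6% in control cells by either LSV, the bottom of the scale, so their true level there may be lower.

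SLMAP is a tail-anchored membrane protein with a coiled coil. Its 90-nucleotide exon at chr3:57911572-57911661 had an inclusion of 88.7% in control and 84.1% in depleted cells without PMA, and 22.8% and 83.3% with PMA, as the mean of source and target LSVs. PMA-treated control cells were low, and the other groups lay between 83.3% and 88.7%. In the 4 GENCODE 29 transcripts that hold the exon it is partly coding, so its bases are not printed. MFSD8 is a transporter of the lysosomal membrane. Its coding exon of 145 nucleotides at chr4:128861008-128861152 (minus strand), the one matched exon whose length is no multiple of 3, had 24.6% in control and 94.1% in depleted cells without PMA, and 16.6% and 67.2% with PMA, by the target LSV. The source LSV gave 25.7% and 82.8%, then 16.1% and 55.4%. Inclusion was the minor form in both control groups and the major form in both depleted groups.

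Called LSVs were also compared for the direction of the depletion effect in the other state. Of the 13 LSVs called without PMA, all of which are listed in both tables, 12 had a difference of the same sign with PMA, and the exception lay in DNM2. Of the 22 called with PMA and listed in both, 19 had the same sign without, and the exceptions were 1 LSV of STX2 and both LSVs of SLMAP, with differences within 4.9 points without PMA. These shares, 92.3% and 86.4%, stand beside 86.5% of 788 and 84.4% of 1508 LSVs over the whole series. In both cases LSVs called in both states are counted, 10 of them in the 54 genes. A further 2 LSVs, both of BIN1, were listed with PMA alone. The 2 tables share no library but were quantified separately, so a difference between states is read from pooled values and was not tested.

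Among LSVs called in at least 1 state, the change of the depletion effect between states was largest in SLMAP, SEC16A, GGA1, STX2 and DNM2. With PMA, the share of the skipping junction of SLMAP was 69.0 points higher than without in control cells and 1.4 points higher in depleted cells. For entry into the SEC16A exon the difference was -32.1 points in control and 10.8 points in depleted cells. It was 34.8 and 4.1 points at the STX2 junction. At the main junction of GGA1 it was -20.7 and 17.2 points, and at the annotated DNM2 junction from 10906115 it was 4.6 and 34.9 points. At these junctions SLMAP, SEC16A and STX2 thus differed between states mainly in control cells, DNM2 mainly in depleted cells, and GGA1 in both, in opposite directions. Other junctions of these genes went otherwise. The DNM2 junction from 10916643 to 10922940, in another called LSV, differed by -23.6 points in control cells, and had 84.2% and 89.4% in depleted cells. In depleted cells SLMAP reached -28.2 points and STX2 20.1 points, each at an LSV that was not called. The change of the depletion effect was 20 points or more in 7 of 13 genes (53.8%), and in 63.9% of the 1360 genes of the whole series with a called LSV listed in both tables.

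**Figure D4:**
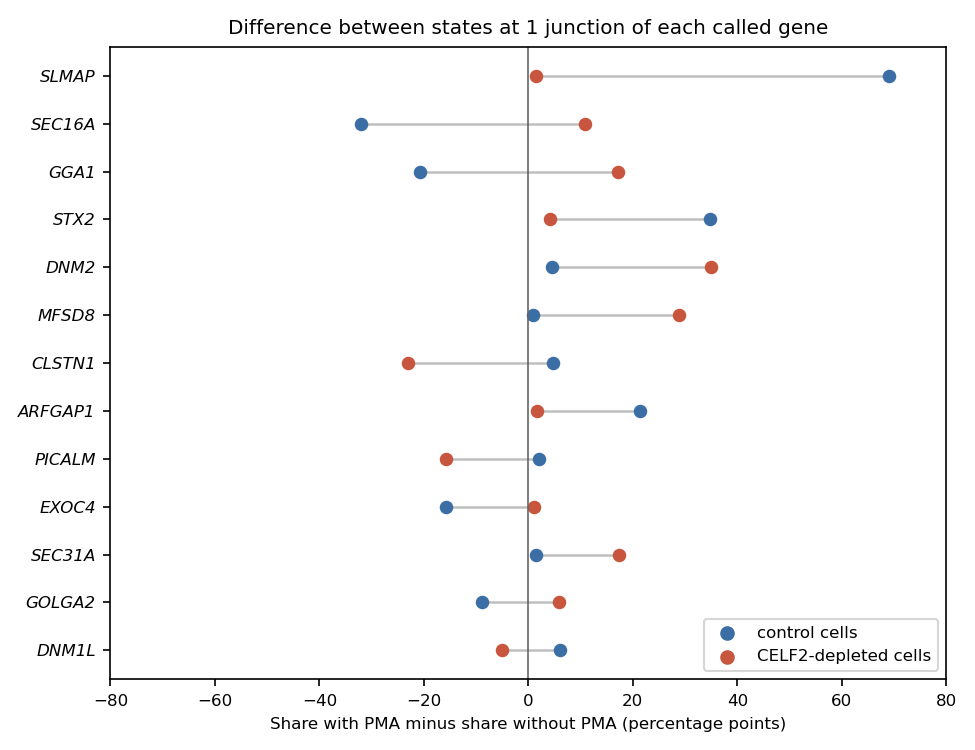
Share with PMA minus share without PMA (percentage points, horizontal axis) in control (blue) and CELF2-depleted cells (red) at the junction whose depletion effect changed most between states, for the 13 genes with a called LSV listed in both tables. SLMAP, SEC16A and STX2 move by over 30 points in control cells and by at most 10.8 points in depleted cells, whereas DNM2, MFSD8 and CLSTN1 move mainly in depleted cells.

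A difference of 20 points or more with PMA, in the same direction in control and in depleted cells, was found in 3 of the 54 genes, against 2.37% of 10500 genes. These were GOLGA4, EPS15L1 and EXOC7, described above, and none of them had a called depletion effect. In control cells taken alone 12 of the 54 genes passed 20 points, against 14.8% of all genes, among them SLMAP, STX2, SEC16A and GOLGB1. The median of the largest PMA difference over the 54 genes was 12.1 points in control cells and 9.6 points in depleted cells, against 8.0 and 7.6 points over all genes. For PMA differences no value over genes of like LSV number was computed. The 54 genes carried a median of 14 LSVs against 7 over all genes, so these comparisons do not allow for LSV number.

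Beyond the 54 genes, a list of 193 other genes of the same pathways was read in the same way. Of 182 in the table without PMA, 10 had a called LSV (5.49%), and of 181 in the table with PMA, 15 did (8.29%), and 7 were called in both. Over genes of like LSV number the shares were 7.1% and 12.1%, and over all genes 6.21% and 10.6%. Their median largest differences were 6.7 and 9.1 points, against 8.5 and 10.4 points over genes of like LSV number. The 193 genes, too, were listed with earlier results of the series known.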

How the data were processed

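Polyadenylated RNA of 8 JSL1 libraries, 2 in each of 4 groups, was sequenced by the authors with strand kept, per the labels' protocols. STAR 2.5.1b and hg19 are named in the submitters' processing notes. The column names are those of VOILA, for which version, read filters and annotation were not given in the sources used here. Per the file headers, the authors' table of each state holds expected junction shares of each group, the expected change and the posterior probability of a change of 20 points or more. Both libraries of a group were pooled by the authors, so depth and spread are unknown. 0 columns of single samples were left unused.

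LSVs were assigned by gene name, and source or target by the LSV type. Differences are depleted minus control shares in percentage points, with an LSV called at a posterior probability of 0.95. Genes of like LSV number were those in the same of 7 ranges of LSVs per gene. Exons were matched to GENCODE 29 by lengths alone, and no position was converted. PMA effects used the 87517 LSVs listed in both tables. Named genes were all with a called LSV, all with a PMA difference of 20 points in both kinds of cells, and the 5 with the largest change of effect between states; other genes were then given by their largest difference. The members, the lists and the rules were chosen with earlier results of these data known. Scripts ran in Python and were tested on simulated data.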

Additional observations from a re-analysis of the deposited data

How the results depend on the processing

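No paired analysis was possible because the tables hold 1 pooled value per group, and for the same reason no replicate could be left out in turn. At posterior probabilities of 0.90 and 0.99 the called genes numbered 10 and 7 of 54 without PMA, near the 8 reported. With PMA the called genes numbered 12 and 11, near the 12 reported. The shares of genes of like LSV number were 11.7% and 5.3% without PMA, against 8.8% at the reported setting. With PMA these shares were 19.5% and 10.6%, against 15.8%. The counts of the 54 genes thus changed little while the shares beside them moved. An expected change of 20 points or more gave 12 and 16 of 54 genes, against 19.2% and 29.6% of genes of like LSV number. With PMA the share of the 54 genes was then level with that of such genes, unlike at the reported setting. An expected change of 10 points gave 23 and 34, against 41.7% and 53.2% of such genes. There the 54 genes were near such genes without PMA and higher with PMA. Without PMA, leaving out LSVs marked de novo gave 4 of 52 genes, against 4.6% of genes of like LSV number. Using LSVs of 2 choices alone gave 5 of 53, against 3.6%. With PMA the same 2 choices gave 10 of 52 and 8 of 53 genes, against 8.2% and 6.8%. The median largest difference of 10.6 points without PMA became 6.7 on the authors' shrunken change, 4.8 without de novo LSVs and 3.5 in LSVs of 2 choices. With PMA 15 points became 14.1, 5.2 and 5.2, and 14.1 in LSVs listed in both tables. Over genes of like LSV number these were 6.3, 4.6 and 5.6 points without PMA, and 10.6, 5.3, 7.1 and 13.0 points with PMA. The 3 genes with a PMA difference became 11 at 10 points, 1 at 30 points, 12 in control cells alone, 1 without de novo LSVs and 1 in LSVs of 2 choices. Over all genes the shares in the same order were 15.2%, 0.314%, 14.8%, 0.977% and 0.921%. Fewer LSVs are counted where LSVs are left out, and the cause of the other changes was not tested. The changes of GOLGA2 and SLMAP kept their direction by either LSV alone. Unknown read depth limits every share near 2.5% or 97.5%.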

Other observations

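Several other genes of these pathways had a called LSV, and those named here were chosen after their values were seen. In FNBP1, which encodes a membrane-bending protein of the F-BAR family, a junction from 132671278 to 132687239 of chromosome 9 fell from 65.3% to 30.1% without PMA and from 81.9% to 15.4% with PMA. In GIT2, an ARF GTPase-activating protein, a junction rose from 50.3% to 80.7% without PMA, and another from 26.7% to 80.6% with PMA. SYNJ2, an inositol phosphatase that helps to uncoat clathrin vesicles, had a junction that rose from 47.6% to 89.9% with PMA.

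The receptor of DNM1L on mitochondria, MFF, was called in both states as well, at a junction that fell from 66.5% to 33.5% without PMA and at another that rose from 28.6% to 63.4% with PMA. STXBP2, which guides syntaxins in the release of lytic granules, had a junction at the upper limit of 97.5% in both control groups and at 64.9% and 65.7% in depleted cells. In CHMP2A, a subunit of the ESCRT machinery, a junction fell from 67.2% to 39.2% and from 78.7% to 41.4%. SEC31B, a relative of SEC31A, rose from 20.2% to 61.3% at a junction without PMA and from 56.8% to 87.0% at another with PMA.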
